A study of Mus musculus with 16 samples.

Results

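Col1a1, Col3a1, Col6a3, Eln, Fn1, Lum, Fmod and Timp3 encode proteins of the extracellular matrix and of tendon. They were followed here in 2 limb muscles of mice that carry a mutant human SOD1 gene. Every probe set annotated to 1 of these 8 symbols alone was taken, which gave 16 of the 7729 probe sets in the table, or 8 of its 4929 named genes. A probe set is a group of short probes that read 1 transcript, and its value is a log2 signal. A mean above the 40th percentile of all probe sets (log2 6.75) was required for a test. Of the 16, 14 passed, with at least 1 for each gene, and the 2 others, Col3a1 1427884_at and Timp3 1419088_at, had means of 6.51 and 5.96.

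Samples came from female C57BL/6 mice, all 7 weeks old, an age that the series calls presymptomatic. SOD1-G93A mice carry the human SOD1 gene with the G93A substitution and are used as a model of amyotrophic lateral sclerosis, in which motor neurons are lost. The controls were non-transgenic (NTg) mice. The same 4 mice of each genotype gave both gastrocnemius, in the calf, and triceps, in the upper forelimb, so that the groups were SOD1-G93A gastrocnemius, NTg gastrocnemius, SOD1-G93A triceps and NTg triceps, with 4 arrays each. The promoter of the transgene was not stated in the labels. RNA was from whole muscle, so that fewer cells of a type and less RNA per cell cannot be told apart.

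Muscle fibres lie in a matrix that fibroblasts make and that joins them to the tendon. Type I and type III collagens form its fibrils, and type VI collagen makes a network near the fibre surface. Lumican and fibromodulin are small proteoglycans that bind collagen fibrils and affect how they grow, fibronectin ties cells to the matrix, elastin gives recoil, and TIMP-3 inhibits the proteases that break the matrix down. In mice, fibromodulin is abundant in tendon.

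Promoters of 4 of the 8 genes were matched in RefSeq's GRCm38.p6 annotation, those of Col3a1, Col6a3, Fmod and Timp3. The Fmod and Col3a1 promoters are shown because a probe set of Fmod was called higher in gastrocnemius while none of Col3a1 was. Both run 5′ to 3′ on the + strand, from 250 bases before the annotated start site to 50 bases after it. Fmod lies at chr1:134037004-134037303 and Col3a1 at chr1:45311288-45311587, and capitals mark any match, on either strand, to one of 3 short promoter motifs. The first motif searched was spelled TATAAA and is the core promoter element that general transcription factor TFIID binds. The second motif searched was spelled CCAAT and is bound by nuclear factor Y. The third motif searched was spelled GGGCGG and is bound by the Sp1 family.
Fmod: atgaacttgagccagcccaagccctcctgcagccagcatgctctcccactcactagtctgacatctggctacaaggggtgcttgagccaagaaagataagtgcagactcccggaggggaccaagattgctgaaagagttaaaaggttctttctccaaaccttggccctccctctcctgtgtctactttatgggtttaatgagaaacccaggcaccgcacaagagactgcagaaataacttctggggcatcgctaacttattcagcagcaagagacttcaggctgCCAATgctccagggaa
Col3a1: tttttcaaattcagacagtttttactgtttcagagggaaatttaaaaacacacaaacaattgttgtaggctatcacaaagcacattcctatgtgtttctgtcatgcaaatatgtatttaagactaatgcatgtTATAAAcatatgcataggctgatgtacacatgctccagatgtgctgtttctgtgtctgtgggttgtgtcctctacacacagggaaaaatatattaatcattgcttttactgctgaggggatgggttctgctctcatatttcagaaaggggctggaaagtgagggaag
Counted from 0 at the start site, the letters CCAAT lay at 34 to 38 in Fmod, a motif found in 37.4% of the 32851 promoters of the annotation. In Col3a1 the letters TATAAA lay at -117 to -112, and 13.6% of promoters held them. GGGCGG was found in neither, against 35.7% of all promoters. Their GC content was 51.0% in Fmod and 37.7% in Col3a1, and the median promoter had 52.7%.

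The labelled tissue was checked against 15 muscle fibre markers, all of which were in the table and tested. Array medians lay between 7.10 and 7.26. In triceps 3 arrays stood apart, SOD1-G93A replicate 2 and NTg replicates 1 and 2. Their Ckm, the muscle creatine kinase gene, read 12.76, 12.84 and 13.02, and it lay between 13.84 and 14.51 in the other triceps arrays. Calls for the 8 genes that rest on these 3 arrays are given with and without them. Of the 8 genes, 6 had their lowest value of the group in NTg triceps replicate 2 and 5 in SOD1-G93A triceps replicate 2. In gastrocnemius, 6 were lowest in SOD1-G93A replicate 4, where Ckm was at 14.71. These counts use the brightest probe set of each gene, as does the plot of levels by array.

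**Figure D1:**
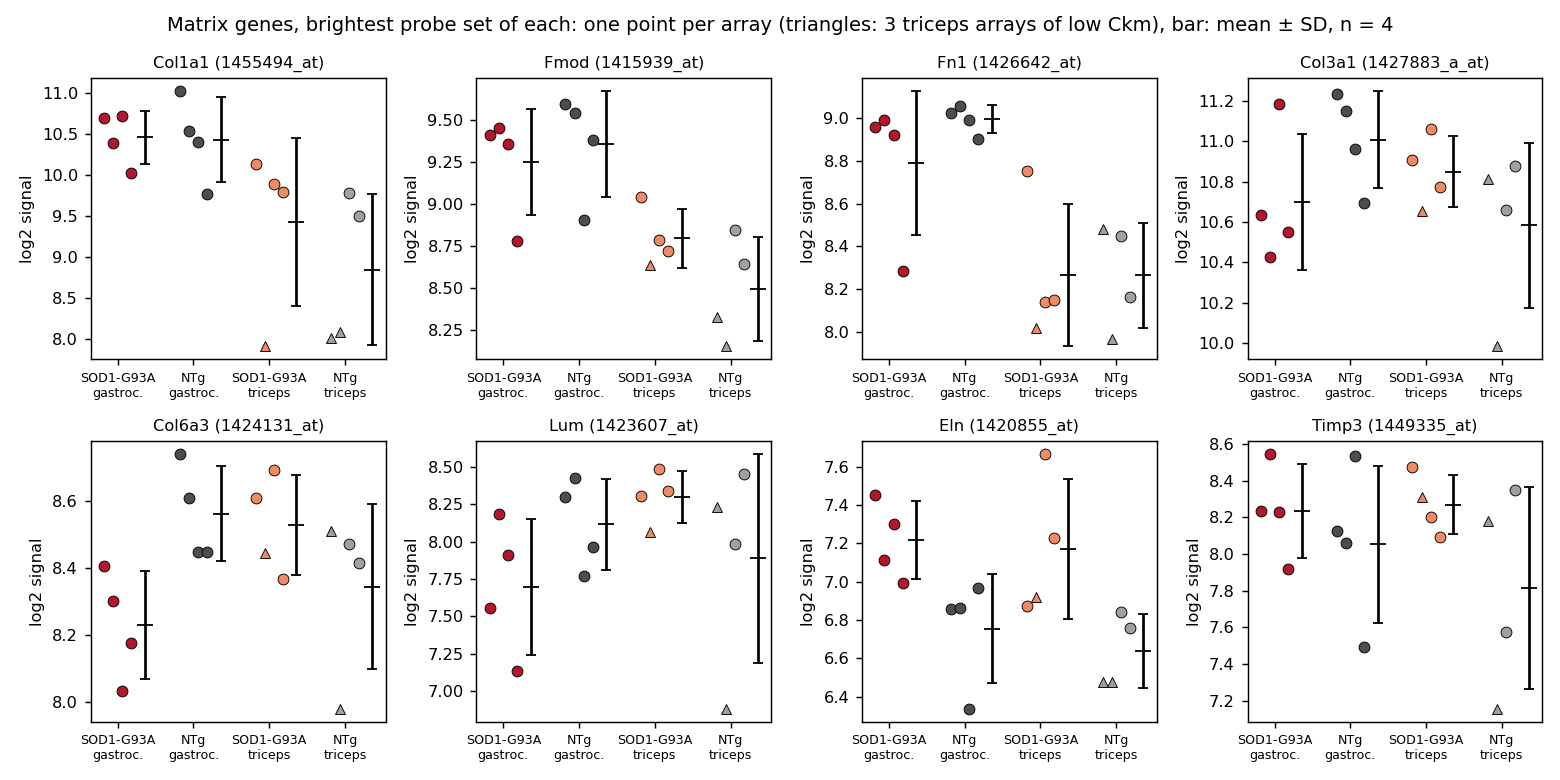
Log2 signal of the brightest probe set of each gene, with 1 point per array in each of the 4 groups and the mean ± SD beside the points (n = 4). Triangles are the 3 triceps arrays of low Ckm. For Col1a1 these 3 lie between 7.91 and 8.09, below every other array.

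Between the muscles, Fmod, Fn1 and Col1a1 were higher in gastrocnemius, each through 1 probe set, by 1.58-fold, 1.55-fold and 2.48-fold. The 5 other genes had no probe set that passed. The difference is gastrocnemius minus triceps over both genotypes, and a call needed an adjusted p under 0.05 (limma, Benjamini-Hochberg over all 4637 tested). Of the 14 probe sets, 3 were called, all higher in gastrocnemius, while 3.69% of all tested probe sets were called and 2.11% were called higher. The median difference over the 14 was 0.33, and 12 were above 0, against a median of -0.004 for all tested probe sets. Fmod, Col1a1 and Timp3 entered the 14 with more than 1 probe set each. With only the brightest probe set of each gene, 6 of the 8 genes were above 0, with a median of 0.12. For none of the 14 did the 8 gastrocnemius arrays stay clear of the 8 triceps arrays, which happened for 1.64% of all tested.

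Fmod 1415939_at was at 9.41, 9.45, 9.35 and 8.78 in SOD1-G93A gastrocnemius and at 9.04, 8.63, 8.78 and 8.72 in SOD1-G93A triceps, in replicates 1 to 4. In NTg mice it was at 9.59, 9.54, 8.90 and 9.38 in gastrocnemius and at 8.33, 8.15, 8.84 and 8.64 in triceps. Each of the 8 mice had the higher value in gastrocnemius, and in NTg mice the muscles did not overlap. The difference was 0.66 (SE 0.13, limma's adjusted p = 0.0081). It was 0.45 in SOD1-G93A mice (SE 0.19, limma's adjusted p = 0.377) and 0.86 in NTg mice (SE 0.19, limma's adjusted p = 0.0242). The difference between those 2 values was -0.41 (SE 0.27, limma's adjusted p = 0.999). In order, the group means were 9.35 ± 0.31 in NTg gastrocnemius, 9.25 ± 0.31 in SOD1-G93A gastrocnemius, 8.80 ± 0.17 in SOD1-G93A triceps and 8.49 ± 0.31 in NTg triceps (SD, n = 4 each). The 2 gastrocnemius means, and the 2 triceps means, differed by no more than the larger SD of the pair.

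The other 4 probe sets of Fmod were also higher in gastrocnemius on average, by 0.31 to 0.45, and none passed (limma's adjusted p from 0.162 to 0.461). Their names end in _x_at, the manufacturer's mark for probes that may also match other transcripts. They moved together from array to array, with Pearson's r of 0.71 to 0.89 between them in deviations from the group means over the same 16 arrays. Against 1415939_at, r was 0.14 to 0.38. All 4 were higher in replicates 1 and 2 than in 3 and 4 in every group, by 0.32 to 1.09. For 1415939_at this difference was 0.36 in SOD1-G93A gastrocnemius, 0.43 in NTg gastrocnemius, 0.08 in SOD1-G93A triceps and -0.50 in NTg triceps. The Fmod probe sets therefore do not give the same profile across arrays, and the called difference is that of 1415939_at.

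Fn1 1426642_at, the only probe set of fibronectin, was at 8.96, 8.99, 8.92 and 8.29 in SOD1-G93A gastrocnemius, against 8.76, 8.02, 8.14 and 8.15 in SOD1-G93A triceps. In NTg mice it was at 9.03, 9.06, 8.99 and 8.91 in gastrocnemius and at 8.48, 7.97, 8.45 and 8.16 in triceps. NTg gastrocnemius was the tightest group, with an SD of 0.07, and lay above every triceps array of either genotype. The difference was 0.63 (SE 0.13, limma's adjusted p = 0.0094), with gastrocnemius higher in 8 of 8 mice, by 0.14 to 1.09. In SOD1-G93A mice alone it was 0.53 (SE 0.18, limma's adjusted p = 0.282) and in NTg mice alone 0.73 (SE 0.18, limma's adjusted p = 0.0606).

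Col1a1, the first chain of type I collagen, has 2 probe sets. 1455494_at was at 10.70, 10.40, 10.72 and 10.03 in SOD1-G93A gastrocnemius and at 10.14, 7.91, 9.89 and 9.79 in SOD1-G93A triceps. NTg gastrocnemius had 11.03, 10.54, 10.41 and 9.77, and NTg triceps had 8.02, 8.09, 9.78 and 9.50. The 3 values near 8 are the low-Ckm arrays, and of the other 5 triceps arrays 4 lay within the range of gastrocnemius, which began at 9.77. The difference was 1.31 (SE 0.32, limma's adjusted p = 0.0290), with gastrocnemius higher in 8 of 8 mice. It was 2.49, 3.01 and 2.46 in the 3 mice with a low-Ckm triceps array, and between 0.24 and 0.83 in the other 5 mice. The second probe set, 1423669_at, differed by 0.84 (SE 0.28, limma's adjusted p = 0.101). In SOD1-G93A triceps replicate 2 and NTg triceps replicates 1 and 2 it was at 9.38, 9.36 and 7.64, so that only NTg replicate 2 was low by both probe sets.

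Without the 3 low-Ckm arrays the calls were fewer, and 10 of the 14 differences were above 0 in place of 12. Fn1 still passed, at 0.57 (limma's adjusted p = 0.0389). Col1a1 1455494_at dropped to 0.66 (limma's adjusted p = 0.0547) and Fmod 1415939_at to 0.50 (limma's adjusted p = 0.0681). Fmod in NTg mice then stood at 0.61 (limma's adjusted p = 0.283). Over the 23 alternatives tried, the adjusted p ranged from 0.0016 to 0.0389 for Fn1, from 0.0023 to 0.0681 for Fmod, from 0.0112 to 0.0730 for Col1a1 and from 0.0077 to 0.283 for Fmod in NTg mice. All 3 arrays carry the numbers 1 or 2. The labels call the numbers biological replicates and state no more about them. In replicates 1 and 2 the difference was 2.13 for Col1a1 1455494_at, 0.96 for Fmod 1415939_at and 0.70 for Fn1. In replicates 3 and 4 it was 0.49, 0.36 and 0.55 for the same probe sets, above 0 in each set. With the mouse as a replicate block, 318 of all tested probe sets were called in place of 171, and 6 of the 14 in place of 3. The 3 added were Col1a1 1423669_at (limma's adjusted p = 0.0459), Fmod 1456084_x_at (0.0359) and Fmod 1437718_x_at (0.0353). In NTg mice this block called 88 probe sets in place of 57, Fn1 among them (limma's adjusted p = 0.0416).

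Col3a1, Col6a3, Lum, Eln and Timp3 gave intervals that include 0 for gastrocnemius minus triceps. Col3a1 1427883_a_at differed by 0.14 (95% interval -0.15 to 0.43) and Col6a3 by -0.04 (-0.25 to 0.17). Lum, at -0.19, had an interval of -0.61 to 0.24, and Eln, at 0.08, one of -0.22 to 0.39. The 2 tested probe sets of Timp3 differed by 0.10 (-0.27 to 0.47) and 0.01 (-0.40 to 0.42). These intervals are not adjusted over probe sets, and in neither direction did a bound reach 0.63, the size of the Fn1 difference. They cover tested probe sets only. The dim Timp3 1419088_at, which was not tested, differed by 0.69, with its lowest value, 3.74, in NTg triceps replicate 2. The dim Col3a1 1427884_at, also not tested, differed by 0.05.

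Within mice, the muscle differences of 2 pairs of genes were set side by side. The pairs were chosen after their values were seen, so that no test is given. Col1a1 1455494_at exceeded Col3a1 1427883_a_at in its muscle difference by 1.17 ± 0.96 (SD, n = 8 mice), in 8 of 8 mice. Fmod 1415939_at exceeded Lum by 0.85 ± 0.53, in 7 of 8 mice. Without the mice of the 3 low-Ckm arrays, the excess was 0.56 ± 0.21 for Col1a1 over Col3a1 and 1.01 ± 0.41 for Fmod over Lum, in 5 of 5 mice for each.

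**Figure D2:**
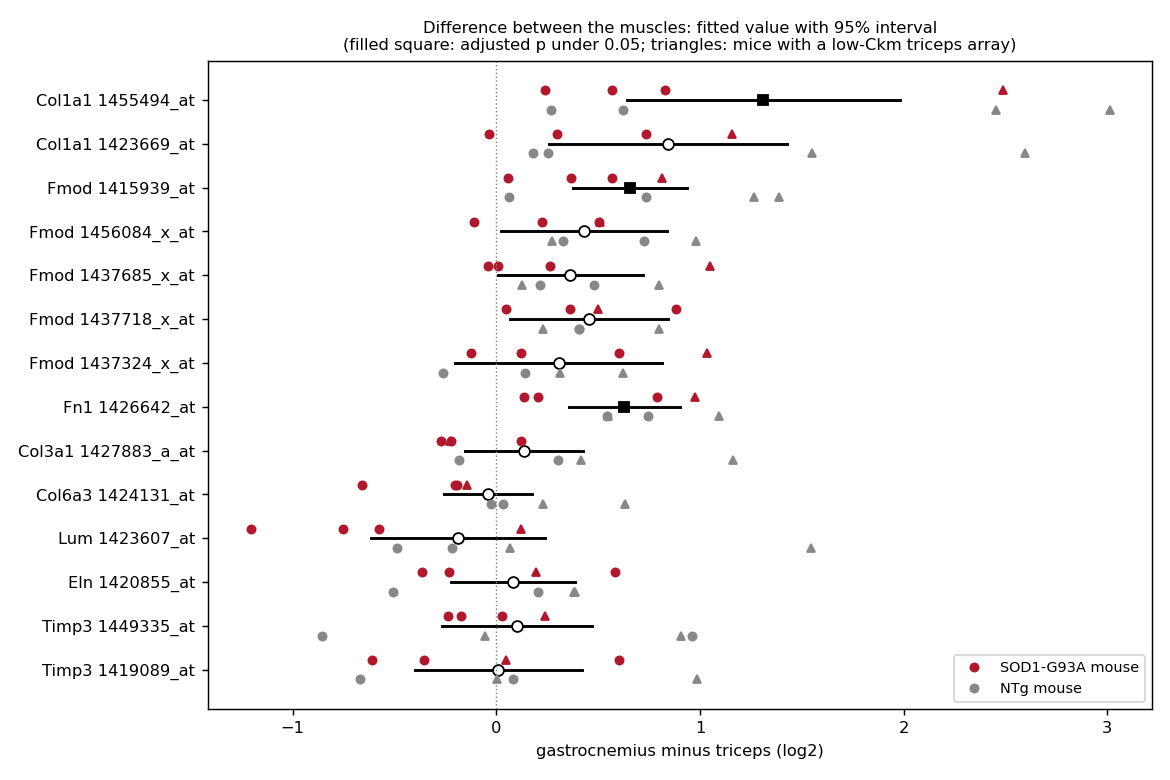
Gastrocnemius minus triceps on the log2 scale for the 14 tested probe sets: the fitted value with its 95% interval, and 1 small point per mouse. Filled squares passed an adjusted p of 0.05, and triangles are the mice with a low-Ckm triceps array, which lie at 2.46 to 3.01 for Col1a1 1455494_at.

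Within SOD1-G93A mice, 0 of the 14 probe sets were called between the muscles by limma (1.04% of all tested were), 4 had an unadjusted p under 0.05, and 9 were above 0 (8 without the low-Ckm arrays). For none of them did the groups stay apart, as they did for 8.3% of all tested. With only the brightest probe set of each gene, 4 of 8 were above 0 in SOD1-G93A mice, with a median of 0.004. Within NTg mice, 1 of 14 was called (1.23% of all tested) and all 14 differences were above 0, with a median of 0.41. By gene, 8 of 8 were above 0 in NTg mice, with a median of 0.33. Of the 4 NTg triceps arrays 2 are low-Ckm arrays, and without the 3 such arrays 11 of 14 were above 0, while Eln was at -0.05, Lum at -0.11 and Timp3 1419089_at at -0.24. Of them 2, Fmod 1415939_at and Fn1, had muscles that did not overlap, against 6.69% of all tested. The muscle difference of Lum was -0.60 in SOD1-G93A mice (SE 0.29, limma's adjusted p = 0.444) and 0.23 in NTg mice (SE 0.29, limma's adjusted p = 0.734). The NTg value was under its SE and stood at -0.11 without NTg triceps replicate 2. Col6a3 was at -0.30 in SOD1-G93A mice (SE 0.14, limma's adjusted p = 0.450), with the lower value in gastrocnemius in 4 of 4 mice, and at 0.22 in NTg mice (SE 0.14, limma's adjusted p = 0.511).

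Markers of some cell types differed between the muscles, and the lists of others held no call. Of the 15 fibre markers 5 were called higher in gastrocnemius, among them the slow-fibre genes Myl2 (5.87), Tnnt1 (5.78) and Myh7 (6.91), and all 15 were above 0. These values include the 3 low-Ckm triceps arrays, and Ckm, which set those arrays apart, is 1 of the 15. Acta1, which was not called, spanned 14.06 to 14.57 in NTg gastrocnemius and 12.84 to 14.45 in NTg triceps. Myh7 spanned 10.78 to 11.33 and 1.30 to 6.28 in the same groups. Both tested Schwann cell markers were higher, Pmp22 by 1.26 and Mbp by 2.34, out of 10 listed. Of 8 tested adipocyte markers 1, Lpl, was called higher (0.69), with 4 above 0 and 4 below. The leukocyte, endothelium and smooth muscle lists had 4, 2 and 2 tested markers. They had 0 called by limma, and 0, 0 and 1 at an unadjusted p under 0.05. The fibroblast list had 7 of 14 markers in the table, and 0 of its 6 tested members were called by limma (1 at an unadjusted p under 0.05). Its summed signal spanned 5770 to 8705 in SOD1-G93A gastrocnemius, 6646 to 8298 in NTg gastrocnemius, 8058 to 8588 in SOD1-G93A triceps and 6808 to 8930 in NTg triceps. Of the 14 tendon markers 6 were in the table and 4 tested, and Fmod was the 1 called. All 4 had an unadjusted p under 0.05, with 3 above 0 and Kera, keratocan, below 0 at -0.55. Tnmd, tenomodulin, a defining tendon marker, was at 7.86 to 8.73 in SOD1-G93A gastrocnemius, 8.03 to 8.50 in NTg gastrocnemius, 7.72 to 8.31 in SOD1-G93A triceps and 7.19 to 8.09 in NTg triceps. No marker value of these lists was at or below 0. The part of these cells in the differences of Fmod, Fn1 and Col1a1 was not tested.

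Between the genotypes none of the 14 probe sets was called, as none of the 4637 was. The percentage called by limma was 0% in gastrocnemius, 0% in triceps, 0% for the average of both muscles and 0% for the difference between the 2 effects. At an unadjusted p under 0.05, 2 of the 14 passed in gastrocnemius, 1 in triceps, 1 for the average and 1 for the difference, against 103, 118, 85 and 86 of all tested. Eln was 1 of the 2 in gastrocnemius and the 1 in triceps and for the average. It was tested only through its level in SOD1-G93A mice, so that these counts are no measure of an excess over all tested. All adjusted p-values of the 14 were at least 0.994.

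Eln, the gene of elastin, was the member with the same direction in both muscles and no overlap in either. 1420855_at was at 7.45, 7.12, 7.30 and 6.99 in SOD1-G93A gastrocnemius, against 6.86, 6.86, 6.34 and 6.97 in NTg gastrocnemius. In triceps it was at 6.87, 6.92, 7.67 and 7.23 in SOD1-G93A mice and at 6.47, 6.48, 6.84 and 6.76 in NTg mice. Every SOD1-G93A array exceeded every NTg array of the same muscle, in gastrocnemius by as little as the 6.99 of replicate 4 against the 6.97 of NTg replicate 4. Of the 14 probe sets, 2 (Eln and Col6a3) had groups apart in gastrocnemius and 1 (Eln) in triceps, against 2.7% and 0.949% of all tested. The difference was 0.46 in gastrocnemius (SE 0.21, limma's adjusted p = 0.999) and 0.53 in triceps (SE 0.21, limma's adjusted p = 0.994). Averaged over both muscles it was 0.50 (SE 0.16, limma's adjusted p = 0.997), or 1.41-fold. Mouse by mouse, the mean of both muscles was 7.16, 7.02, 7.48 and 7.11 in SOD1-G93A mice and 6.67, 6.67, 6.59 and 6.86 in NTg mice. Over both muscles the mean was 7.19 in SOD1-G93A and 6.70 in NTg, below the limit of 6.75 for testing, so that Eln was tested only through its level in SOD1-G93A and the shares above are no measure of how unusual it is. The result does not pass the adjustment. Adipocyte markers also lay above 0 in SOD1-G93A muscle, 7 of 8 tested in each muscle with medians of 0.35 and 0.34 and 0 called by limma (2 in each at an unadjusted p under 0.05). Fibre markers were above 0 in 11 of 15 in gastrocnemius and in 14 of 15 in triceps, low-Ckm arrays included. For fibroblast markers these were 2 of 6 and 6 of 6. The part of these cells in the Eln difference was not tested.

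Col6a3, a chain of type VI collagen, was lower in SOD1-G93A gastrocnemius without overlap. Its probe set was at 8.41, 8.30, 8.03 and 8.18 in SOD1-G93A gastrocnemius and at 8.74, 8.61, 8.45 and 8.45 in NTg gastrocnemius, a difference of -0.33 (SE 0.14, limma's adjusted p = 0.999). In triceps it was at 8.61, 8.44, 8.69 and 8.37 in SOD1-G93A mice, against 8.51, 7.98, 8.47 and 8.41 in NTg mice, where the groups overlapped. That difference was 0.18 (SE 0.14, limma's adjusted p = 0.994). The effects differed between the muscles by -0.52 (SE 0.20, limma's adjusted p = 0.999). Without NTg triceps replicate 2 the triceps difference was 0.06, and the difference between the muscles was -0.40.

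Lum and the brighter Col3a1 probe set had the same pair of signs. Lum was at -0.42 in gastrocnemius and 0.41 in triceps (SE 0.29 each), and Col3a1 1427883_a_at at -0.31 and 0.27 (SE 0.20 each). The gastrocnemius value of Lum was -0.23 without SOD1-G93A gastrocnemius replicate 4. NTg triceps replicate 2 was the lowest of all 16 arrays for Lum, at 6.88, and for this Col3a1 probe set, at 9.98. Without that array the triceps difference was 0.07 for each, and 0.03 for Col1a1 1423669_at, against 0.52 with it. The dim Col3a1 probe set, 1427884_at, was higher in replicates 1 and 2 than in 3 and 4, by 0.91 in NTg gastrocnemius and 0.81 in NTg triceps, and it did not follow 1427883_a_at (r = 0.14 over 16 arrays). Its genotype differences, which were not tested, were below 0 in both muscles, at -0.29 in gastrocnemius and -0.15 in triceps.

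Timp3 encodes an inhibitor of matrix proteases. By its 2 tested probe sets the genotype difference was 0.18 and 0.27 in gastrocnemius (SE 0.25 and 0.28) and 0.46 and 0.45 in triceps (SE 0.25 and 0.28). The gastrocnemius values were under their SE, and without NTg gastrocnemius replicate 4 that of 1449335_at was -0.01. Without NTg triceps replicate 2 the triceps values were 0.23 and 0.16. Its dim probe set, 1419088_at, was at 3.74 in that array and between 5.04 and 6.73 in the other 15. For Fn1 the genotype difference was -0.21 in gastrocnemius and 0.00 in triceps (SE 0.18 each). Without SOD1-G93A gastrocnemius replicate 4 the gastrocnemius value of Fn1 was -0.04.

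**Figure D3:**
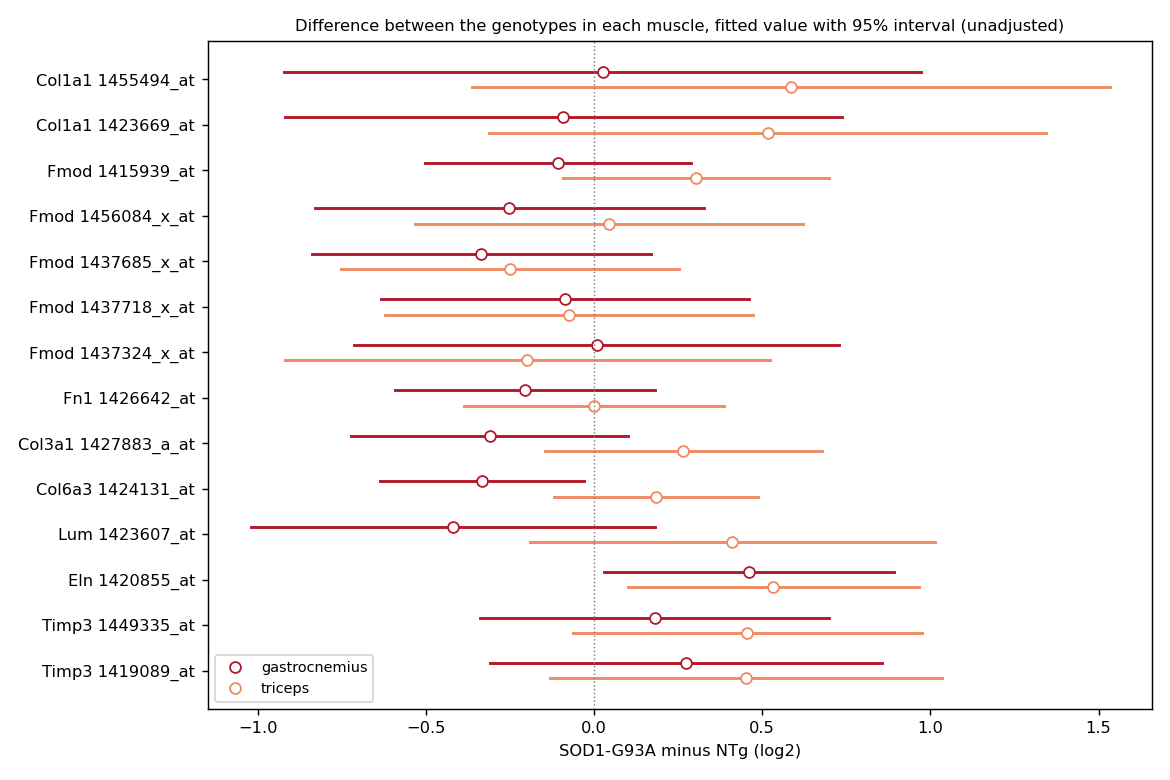
SOD1-G93A minus NTg on the log2 scale in each muscle for the 14 tested probe sets, with unadjusted 95% intervals. Open circles did not pass an adjusted p of 0.05, and only Eln lies clear of 0 in both muscles, at 0.46 and 0.53.

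Across the 14 probe sets the genotype difference had a median of -0.10 in gastrocnemius, with 5 above 0, and of 0.28 in triceps, with 11 above 0. The 2 comparisons used arrays of the same mice. By gene, through the brightest probe set, 3 of 8 were above 0 in gastrocnemius (median -0.16) and 8 of 8 in triceps (median 0.36). For the 14, the triceps median was 0.11 without NTg triceps replicate 2, with 11 above 0. Without the 3 low-Ckm arrays it was 0.13, with 13 above 0. The difference between the effects was below 0 in 13 of 14, with a median of -0.29, against -0.04 over all tested probe sets. Without the 3 low-Ckm arrays 12 of 14 were below 0, with a median of -0.26. The matrix lists hold 118 genes, of which 73 were in the table and 49 were tested, with 0 called by limma in either muscle (2 in each at an unadjusted p under 0.05). The 41 tested genes other than the 8 are given here. In triceps 34 of the 41 were above 0, with a median of 0.15, where 54.4% of all tested probe sets were above 0. Without NTg triceps replicate 2 these were 27 of 41, 0.03 and 52.8%. In gastrocnemius 15 of 41 were above 0, with a median of -0.08, against 47.1% of all tested. The difference between the effects was below 0 in 34 of 41, with a median of -0.25, against 56.2% of all tested. Without NTg triceps replicate 2 it was below 0 in 34 of 41, with a median of -0.12, against 53.0%.

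**Figure D4:**
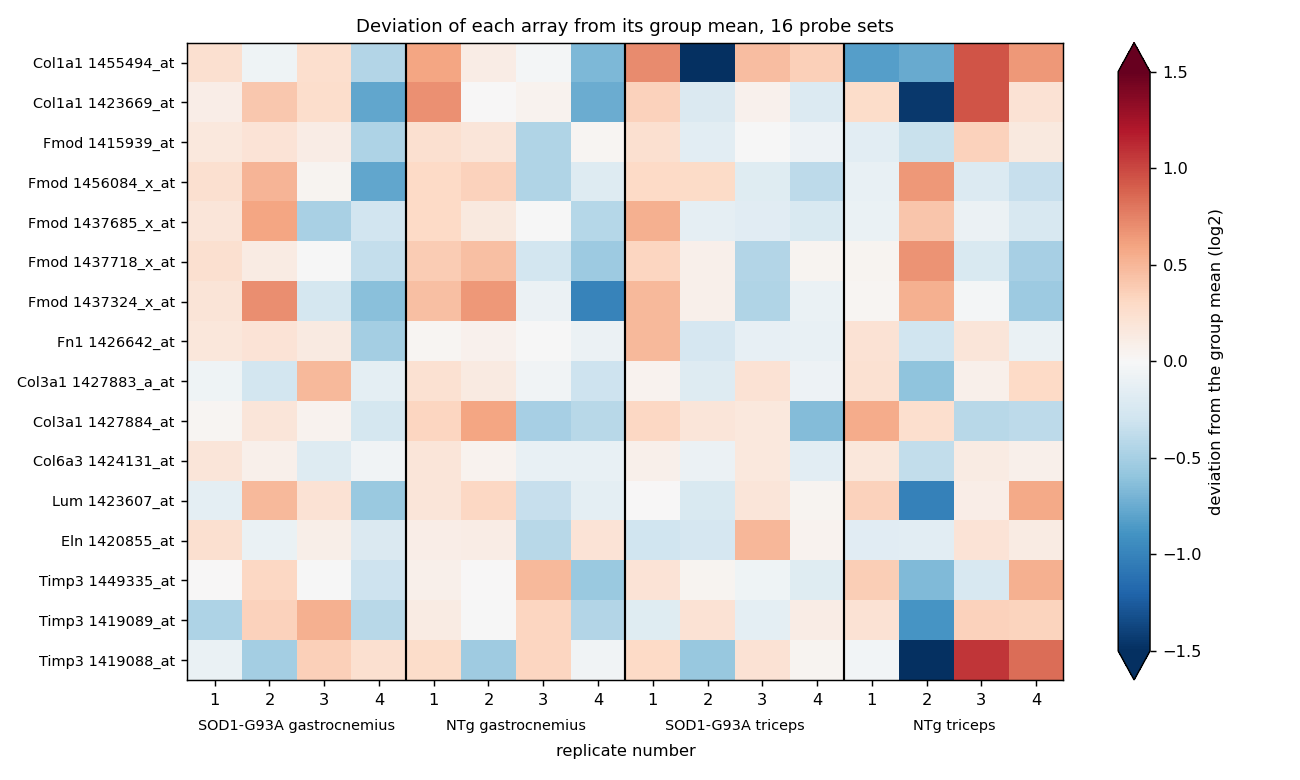
Deviation of each array from its group mean on the log2 scale, for all 16 probe sets (rows) and 16 arrays (columns, replicates 1 to 4 within the 4 groups). The 4 Fmod _x_at probe sets are higher in replicates 1 and 2 than in 3 and 4, and most other probe sets are low in NTg triceps replicate 2. Values beyond 1.5 take the end colours.

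For the other matrix genes, only Mgp, which encodes matrix Gla protein, an inhibitor of calcification, was called between the muscles. It was higher in gastrocnemius by 0.78 (SE 0.13, limma's adjusted p = 0.0013), and it was the 1 called of 41 tested list genes other than the 8. Of all tested probe sets 3.69% were called, a share that 1 of 41 does not exceed. With the mouse as a replicate block, 8 of the 49 list genes were called in place of 4, all higher, and Ccn2, Col1a2, Postn and Sparc were the added ones. This block called 318 of all 4637 tested in place of 171. By list, all 6 tested adhesive and matricellular glycoproteins were above 0, with a median of 0.71 and 2 called. All 6 fibrillar collagens were above 0 (median 0.14, 1 called), while 3 of the 4 tested type VI and fibril-associated collagens were (median 0.13, 0 called by limma, 0 at an unadjusted p under 0.05). Small leucine-rich proteoglycans went both ways, with 4 of 6 above 0 (median 0.17, 1 called) and Kera the lowest. Basement membrane genes had 5 of 7 above 0 (median 0.09), elastic fibre genes 3 of 3 (median 0.25) and matrix receptors 3 of 5 (median 0.29). Collagen processing genes had 1 of 3 above 0 (median -0.11), proteases and inhibitors 2 of 4 (median 0.02) and TGF-beta signalling 0 of 5 (median -0.17). These last 6 lists had 0 called genes by limma, and at an unadjusted p under 0.05 the basement membrane, elastic fibre and TGF-beta lists had 1 each. Without the 3 low-Ckm arrays the median over the 49 was 0.00, with 25 above 0, where it had been 0.12 with 33 above 0, and Fn1 and Mgp stayed called.

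**Figure D5:**
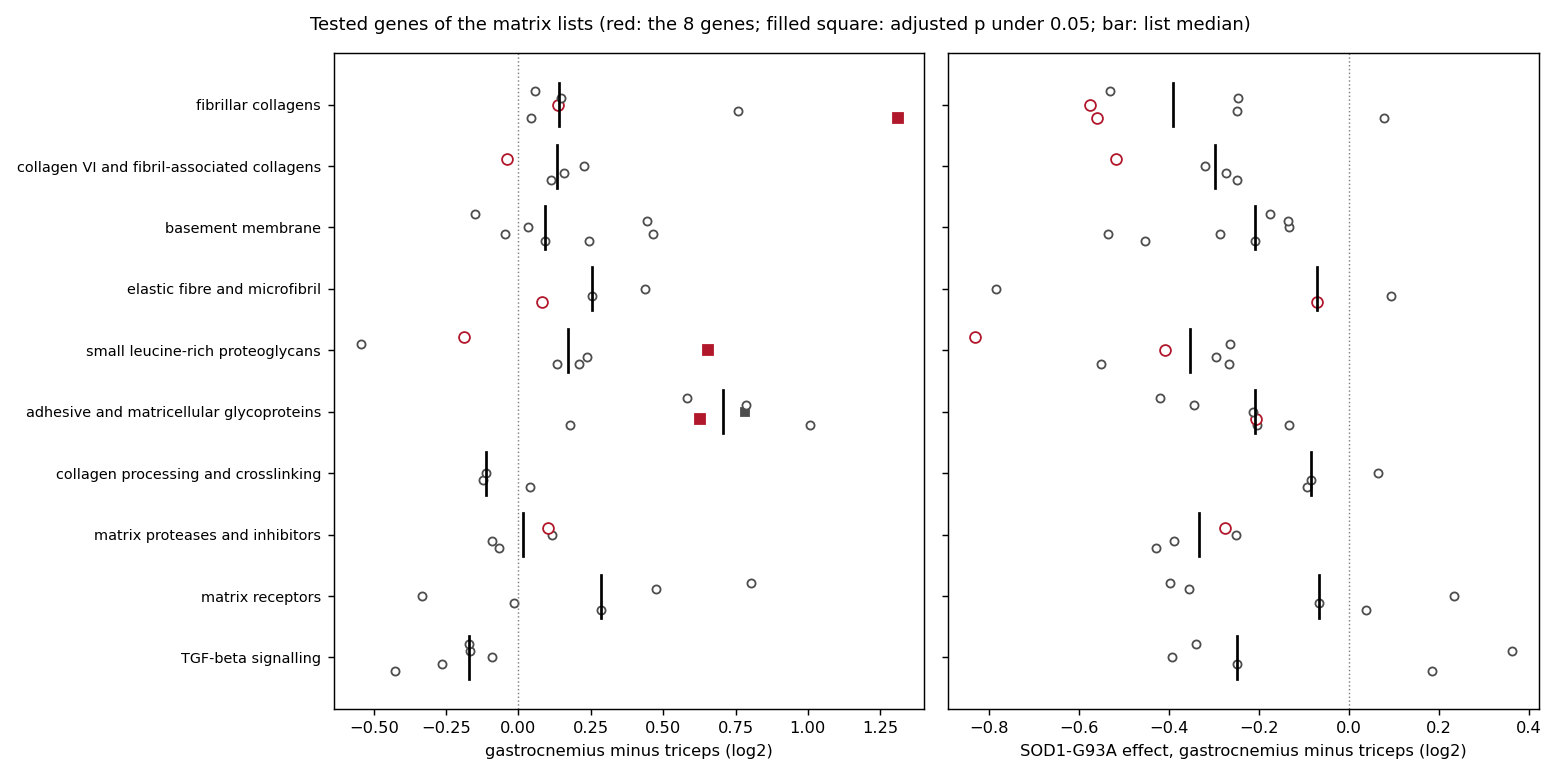
Tested genes of the 10 matrix lists. On the left is gastrocnemius minus triceps and on the right the SOD1-G93A effect in gastrocnemius minus that in triceps, both on the log2 scale. Red marks the 8 genes, filled squares passed an adjusted p of 0.05, and bars are list medians, which reach 0.71 on the left for the adhesive and matricellular glycoproteins.

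The genes whose deviations from the group means were most like those of a member were taken from 3034 genes over the same 16 arrays, as Pearson's r. For Col3a1 the first was Nid1, nidogen 1 of the basement membrane (0.85), for Timp3 it was Tgfb3, a TGF-beta ligand (0.85), and for Col1a1 it was Arglu1 (0.94). For Fmod the first was Nckap1 (0.87), for Lum Tm4sf1 (0.87), for Col6a3 Mrpl16 (0.87), for Eln Abcc5 (0.84) and for Fn1 Ramp2 (0.79). Among the 8 genes themselves the values most alike were Lum with Col3a1 (0.70), Fmod with Lum (0.68) and Fmod with Fn1 (0.68), and the lowest was Eln with Timp3 (-0.26). Arrays that are low for many genes, such as NTg triceps replicate 2, enter all of these values.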

How the data were processed

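Frozen muscle RNA was extracted with Trizol and RNeasy, and biotin-labelled cRNA from 4 ug of it was hybridised to Affymetrix arrays, per the labels' protocols. The deposited log2 values (7729 probe sets, 16 arrays) were made by the authors with MAS5, per the submitters' processing notes. Its version, the scaling and the rule that chose the probe sets were not given in any source used here, and base 2 was read from the values (highest 14.8). Values were used as deposited. Arrays have no depth, and their number limits the precision.

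limma 3.58.1 in R 4.3.3 fitted the 4 group means (eBayes with trend) to the 4637 probe sets above the 40th percentile, with Benjamini-Hochberg adjustment over all of them. The genotype average used the mouse as a random block (correlation 0.18). The series states that 4 mice per genotype gave both muscles, and the replicate number was taken as the mouse: in 8 of 8 cases same-numbered muscles correlated best, at 0.14 to 0.39, in deviations from the group means. Across genotypes, same-numbered arrays of a muscle correlated best in 1 of 8 cases, at 0.0006 to 0.37 (5 of 8 over 0.1). The main fits did not pair mice across genotypes. Those of the muscle differences and of the difference between the effects used no block. Both muscles of a mouse thus entered them as separate arrays. The mouse block, quantile normalization, filters, no trend, each array and the 3 low-Ckm arrays left out, and replicates 1 and 2 against 3 and 4 as a block were alternatives. For the genotype difference within a muscle, the replicate number took the place of the mouse as the block. The fits were tested on simulated data.

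Symbols came from the platform annotation (7053 probe sets with a single one). The brightest probe set stood for a gene in lists. All probe sets of the 8 genes were named, with called list genes, each member's most alike genes and, chosen after their values were seen, Kera and the low-Ckm arrays. The members and the gene lists were chosen with earlier results of these data known.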

Additional observations from a re-analysis of the deposited data

Results flagged for a closer look

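In 6 of 64 values of a probe set in a group, the lowest or highest of the 4 arrays stood far from the other 3 by Dixon's test, which chance gives in about 1 of 20. Col1a1 1455494_at was at 7.91 in SOD1-G93A triceps replicate 2, with the others at 9.79 to 10.14. In SOD1-G93A gastrocnemius replicate 4, Fn1 was at 8.29 (others 8.92 to 8.99) and Fmod 1415939_at at 8.78 (others 9.35 to 9.45). Col3a1 1427884_at, a dim probe set, was at 5.75 in SOD1-G93A triceps replicate 4 (others 6.56 to 6.71). Fmod 1437685_x_at was high in SOD1-G93A triceps replicate 1, at 8.38 (others 7.62 to 7.71). Timp3 1419089_at was at 6.95 in NTg triceps replicate 2 (others 8.06 to 8.18).

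For Col6a3 the genotype differences had opposite signs, -0.33 in gastrocnemius and 0.18 in triceps. The difference between them, -0.52, was tested and had limma's adjusted p of 0.999.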

How the results depend on the processing

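Between the muscles 171 probe sets were called by limma. Without the 3 low-Ckm triceps arrays there were 103, with replicates 1 and 2 against 3 and 4 as a block 436, with the mouse as a replicate block 318, and 99 to 272 with 1 array left out. Within SOD1-G93A mice 48 were called, and 23 to 58 with 1 array left out. Within NTg mice 57 were called, 90 with the block of replicates 1 and 2 against 3 and 4, 88 with the mouse as a replicate block, and 37 to 66 with 1 array left out. No genotype call was gained for the 14 probe sets under any alternative run. A change of sign in an uncalled difference under its SE was not counted as a reversal.

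Col1a1 1455494_at lost its call without SOD1-G93A gastrocnemius replicate 1, 2 or 3, NTg gastrocnemius replicate 1 or 2, or NTg triceps replicate 1, at 1.17 to 1.32. Fn1 and Fmod 1415939_at kept theirs with any 1 array left out, at 0.58 to 0.71 and 0.60 to 0.73. Within NTg mice Fmod lost its call without gastrocnemius replicate 1, 2 or 4 or triceps replicate 1 or 2, at 0.75 to 0.85. The replicate block changed no other call of the 14 than those given above. With replicates 1 and 2 against 3 and 4 as a block, 5 of the 14 were called between the muscles. Fmod 1456084_x_at (limma's adjusted p = 0.0377) and 1437718_x_at (0.0309) were added, and in NTg mice Fn1 (0.0402). Without NTg triceps replicate 3, Col1a1 1423669_at was called (limma's adjusted p = 0.0355). The cause of these changes was not tested.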
